A study of Mus musculus with 7 samples.

Results

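The E2F factors and the retinoblastoma family were followed in sorted mouse heart muscle cells of 2 ages, postnatal day 30 (P30, 3 libraries) and postnatal day 6 (P6, 4 libraries). The 10 genes were taken by symbol from a count table of 23337 genes: E2f1, E2f2, E2f3, E2f4, E2f6, E2f7 and E2f8, and the pocket protein genes Rb1, Rbl1 and Rbl2. All 10 were in the table and passed the filter on low counts that left 12561 genes for testing. E2f5 was not among the genes followed. Mice of both ages carried the Rosa-Tom or Rosa-Cas9 allele and received AAV9-cTNT-Cre on day 1, a virus whose cardiac troponin T promoter limits Cre to cells in which that promoter is active. The labels do not say which of the alleles each library carried, and time since the virus cannot be told apart from age. Cells were freed by collagenase perfusion and sorted by fluorescence, and their RNA was copied with a SMART-Seq kit before sequencing. A protocol text gives collection at P14, whereas titles, ages and the series design give P6 and P30, which were used here. Nothing in the labels ties each library to an animal of its own, so the spread behind every p-value may be a technical one.

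E2F factors bind DNA, mostly with a DP partner, at genes needed for DNA synthesis and cell division. Pocket proteins bind E2F factors and hold those genes silent until cyclin-dependent kinases phosphorylate them at the end of G1. E2F1, E2F2 and E2F3 are known mainly as activators, E2F4 as a repressor that works with pocket proteins in resting cells, E2F6 as a repressor that works with Polycomb proteins and without pocket proteins, and E2F7 and E2F8 as atypical repressors that need no DP partner. Mouse cardiomyocytes withdraw from the cell cycle in the first weeks after birth.

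Promoter sequences are shown for the pocket protein genes that moved in opposite directions (Rbl1 and Rbl2), for the atypical E2F genes, which were lower at P30, and for E2f3, which did not pass the test. RefSeq windows on GRCm38.p6 covered 8 of the 10 genes. Each line gives the 250 bases before the RefSeq start site, 5′ to 3′ on the strand of the gene. Capitals mark 2 motifs searched on both strands: the E2F letters TTTCCCGC, TTTCGCGC, TTTGCCGC or TTTGGCGC, and the CHR letters TTTGAA, an element of late cell cycle genes bound by the MuvB core. The stretches lie at chr2:157204535-157204784 for Rbl1 (minus strand), chr8:91069807-91070056 for Rbl2 (plus strand), chr10:110745189-110745438 for E2f7 (plus strand), chr7:48881597-48881846 for E2f8 (minus strand) and chr13:29986064-29986313 for E2f3 (minus strand).
Rbl1: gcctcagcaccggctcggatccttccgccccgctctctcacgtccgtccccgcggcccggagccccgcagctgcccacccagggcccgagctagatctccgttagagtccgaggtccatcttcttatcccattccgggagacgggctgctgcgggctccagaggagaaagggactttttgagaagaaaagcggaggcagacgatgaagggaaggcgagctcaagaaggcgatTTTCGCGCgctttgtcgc
Rbl2: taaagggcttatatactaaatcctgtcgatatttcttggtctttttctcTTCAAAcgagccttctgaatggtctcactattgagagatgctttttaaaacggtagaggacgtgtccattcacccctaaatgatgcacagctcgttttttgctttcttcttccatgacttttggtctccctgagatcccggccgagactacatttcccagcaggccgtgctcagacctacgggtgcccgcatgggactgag
E2f7: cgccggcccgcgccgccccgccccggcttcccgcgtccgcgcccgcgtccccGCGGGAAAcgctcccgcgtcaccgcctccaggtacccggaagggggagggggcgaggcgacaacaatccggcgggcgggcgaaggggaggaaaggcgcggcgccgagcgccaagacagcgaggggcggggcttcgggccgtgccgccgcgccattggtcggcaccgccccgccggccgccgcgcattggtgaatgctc
E2f8: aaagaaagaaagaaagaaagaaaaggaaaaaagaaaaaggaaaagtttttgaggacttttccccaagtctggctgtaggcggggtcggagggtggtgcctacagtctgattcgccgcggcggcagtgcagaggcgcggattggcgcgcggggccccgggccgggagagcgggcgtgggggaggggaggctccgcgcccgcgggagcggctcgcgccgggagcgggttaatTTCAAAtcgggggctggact
E2f3: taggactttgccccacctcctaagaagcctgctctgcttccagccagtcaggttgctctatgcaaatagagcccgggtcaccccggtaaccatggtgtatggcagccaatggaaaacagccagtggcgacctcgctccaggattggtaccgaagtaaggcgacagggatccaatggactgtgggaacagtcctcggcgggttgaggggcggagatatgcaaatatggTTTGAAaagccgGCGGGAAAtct

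The E2F letters began 18 bases before the start site of Rbl1, on its own strand, and read on the opposite strand 198 bases before that of E2f7 and 11 bases before that of E2f3. E2f2 had them 39 bases after its start site, and the windows of E2f6, E2f8 and Rbl2 had none. The CHR letters lay 20 bases before the start site of E2f8, 201 bases before that of Rbl2 and 23 bases before that of E2f3, and none of these matches overlapped an E2F match. RefSeq starts that lie well inside the gene as GENCODE draws it were not read here as promoters: that of E2f1, 466 bases inside, and the second starts of E2f2 and E2f3, 8388 and 1672 bases inside. Of all 32851 windows of 300 bases, 2.26% held the E2F letters and 17.9% the CHR letters.

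Between the ages the family split. E2f1, E2f2, E2f7, E2f8 and Rbl1 fell to low levels at P30, E2f4, E2f6 and Rbl2 were higher at P30, and E2f3 and Rb1 did not pass the test. By edgeR's quasi-likelihood test with a Benjamini-Hochberg adjusted p under 0.05 over all tested genes, 5 of the 10 were lower and 3 higher. Over all tested genes 27.8% were lower and 26.3% higher, and 54.1% passed in either direction, so 8 called genes of 10 is read against a high background. Of all tested genes, 12.4% were called at least 2-fold lower at P30, and all 5 lower members were among these. The CPM (read counts scaled to library size, here with TMM factors) of 8 members did not overlap between the ages, as was so for 56.6% of tested genes. In the authors' deposited table, 5 members were lower and 3 higher, and all 10 had the same call as here. In bulk samples, fewer cells that carry a transcript and less of it per cell cannot be told apart.

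**Figure D1:**
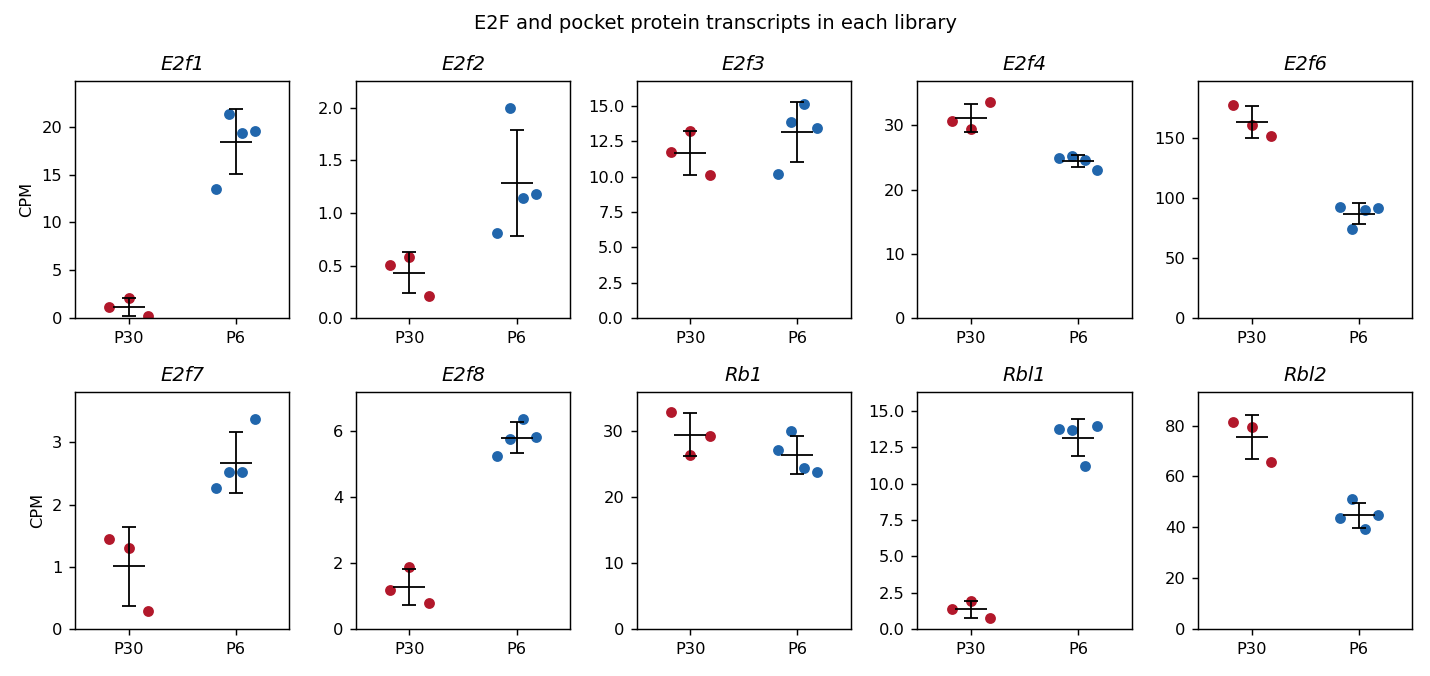
CPM of each family member in every library, with P30 (red, 3 libraries) left of P6 (blue, 4 libraries); each point is a library, the horizontal mark is the mean and the bar the SD, and each panel has its own axis from 0. E2f1 and Rbl1 lie near 0 at P30, E2f6 and Rbl2 lie higher at P30 in every library, and the ages overlap for E2f3 and Rb1.

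Total counts ran from 15555469 to 19368717 at P30 and from 10594932 to 51427646 at P6. Genes with at least 1 count numbered 15720 to 18223 per library at P30 and 14476 to 15692 at P6. The 10 cardiomyocyte markers summed to 103800 to 106500 CPM at P30 and 67800 to 78950 CPM at P6, and all were detected. Of these markers 5 were higher and 1, Nkx2-5, was lower, while Tnnt2, Actn2, Pln and Gata4 did not pass the test. Myh6 was the largest part of the sum, with means of 57300 CPM at P30 and 33640 CPM at P6. Markers of other cells were also present. The 10 endothelial markers summed to 356 to 703 CPM at P30 and 127 to 254 CPM at P6, with 7 higher and none lower, and the 10 myeloid and lymphoid markers to 13.4 to 42.3 CPM at P30 and 2.30 to 5.402 CPM at P6, with 6 higher of 7 tested and Ms4a1 listed at 0 in all P6 libraries. The 10 fibroblast markers summed to 213 to 387 CPM at P30 and 194 to 439 CPM at P6, with 1 higher and 1 lower, and the 8 smooth muscle and pericyte markers to 973 to 1815 CPM at P30 and 984 to 2193 CPM at P6, with 4 higher and 1 lower. Most of that last sum was Acta2, which did not pass the test, with means of 1186 CPM at P30 and 1456 CPM at P6. The 4 higher were Myh11, Pdgfrb, Rgs5 and Kcnj8, and Cnn1 was lower. Epicardial markers reached at most 8.42 CPM at P30 and 10.2 CPM at P6, and glial markers 5.49 CPM at P30 and 5.25 CPM at P6. Erythroid markers reached at most 4.01 CPM at P30 and 10.49 CPM at P6, with Hba-a1 and Hba-a2 listed at 0 throughout. The handling of multi-mapping reads is not given, so a listed 0 need not mean that the transcript was absent. Endothelial and myeloid markers were thus higher at P30 together with E2f4, E2f6 and Rbl2. Among the P30 libraries, each of the 10 endothelial markers was highest in P30b, as were E2f1, E2f2, E2f3, E2f8 and Rbl1. E2f6, E2f7, Rb1 and Rbl2 were highest in P30a, and E2f4 in P30c. P30c was the lowest P30 library for every endothelial marker except Vwf, and for every member except E2f4 and Rb1. The part of endothelial and myeloid cells in the results was not tested.

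Among the activators, E2f1 showed the largest fall of the family. E2f1 lies on the minus strand at chr2:154559407-154569892 (GRCm38), apart from any other annotated exon. This factor, best known for driving entry into S phase, had 1.17, 2.13 and 0.281 CPM in P30a, P30b and P30c, against 13.5, 21.3, 19.3 and 19.6 CPM in P6a to P6d. Every P30 library was below every P6 library for E2f1, and P30c held only 4 reads of the gene. The mean was 1.20 ± 0.926 CPM at P30 (SD, n = 3) and 18.4 ± 3.42 CPM at P6 (SD, n = 4), and the log2 fold change, P30 over P6, was -3.93 ± 0.43 (SE; edgeR adjusted p = 6.3e-05). The log2 fold change was -4.59 without P30b and -3.50 without P30c.

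E2f2, a close relative of E2f1, was scarce at both ages. It had 0.502, 0.582 and 0.210 CPM in P30a to P30c, against 0.814, 1.998, 1.14 and 1.18 CPM in P6a to P6d. These are 9, 9 and 3 reads at P30 and 9, 60, 62 and 14 reads at P6. The groups did not overlap, and the log2 fold change was -1.58 ± 0.48 (edgeR adjusted p = 0.019), but the call was lost without P30a (edgeR adjusted p = 0.0528) and without P30c (edgeR adjusted p = 0.0735).

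E2f3, the remaining activator, did not pass the test. It had 11.7, 13.3 and 10.1 CPM in P30a to P30c and 10.2, 13.9, 15.2 and 13.4 CPM in P6a to P6d, so the ages overlapped. Its log2 fold change was -0.18 ± 0.17, with an edgeR adjusted p of 0.39. E2f1 and E2f2 were thus the activators called lower, and E2f3 was the most counted of the 3 at P30. The counts are per gene and do not separate transcripts from the first and second RefSeq starts of E2f3.

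E2f4 and E2f6, the repressors among the members that pair with DP proteins, were higher at P30. E2f6 (chr12:16810963-16839742, plus strand) had 178, 161 and 152 CPM in P30a to P30c, against 93.0, 74.4, 90.1 and 91.4 CPM in P6a to P6d. All P30 libraries lay above all P6 libraries, and the log2 fold change was 0.91 ± 0.10 (edgeR adjusted p = 8.4e-05), or 1.87-fold on the means. E2f4 had 30.6, 29.3 and 33.6 CPM in P30a to P30c, against 25.0, 25.1, 24.5 and 23.0 CPM in P6a to P6d. The groups did not overlap here either, although the difference was small, at a log2 fold change of 0.35 ± 0.10 (edgeR adjusted p = 0.016). The E2f4 call was lost when library totals replaced the TMM factors (log2 fold change 0.17, edgeR adjusted p = 0.196) and without P30c (edgeR adjusted p = 0.0671). Library totals also moved the median log2 fold change of all tested genes to -0.20, against -0.02 with TMM factors, and relative to that median E2f4 was at 0.37.

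The atypical repressors fell. E2f8 had 1.17, 1.87 and 0.772 CPM in P30a to P30c, against 5.25, 5.76, 6.38 and 5.82 CPM in P6a to P6d. No P30 library reached the lowest P6 library, and the log2 fold change was -2.18 ± 0.30 with an edgeR adjusted p of 0.00025. E2f7 had 1.45, 1.29 and 0.281 CPM in P30a to P30c, against 2.26, 2.53, 2.53 and 3.38 CPM in P6a to P6d. P30c, with 4 reads of E2f7, was far below the other P30 libraries, and the log2 fold change of -1.38 ± 0.46 (edgeR adjusted p = 0.028) was -0.95 without P30c. The E2f7 call was lost without P6d (edgeR adjusted p = 0.0579). The predicted gene Gm2788 overlaps exons of E2f8 on the other strand over 11.2% of its exon bases, and the strand setting of the counts is not given in the sources used here.

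**Figure D2:**
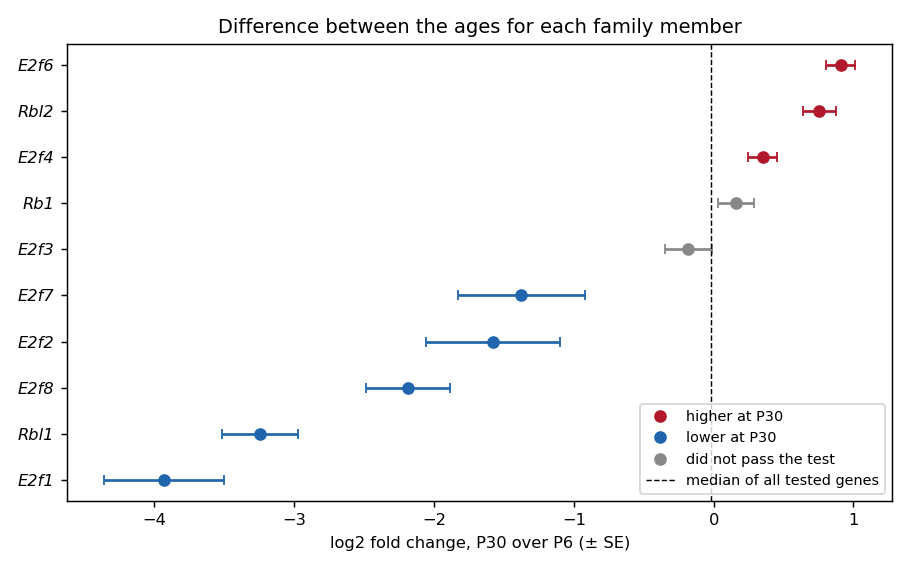
Log2 fold change of P30 over P6 for each member with its SE, ordered by value; colours give the edgeR call and the dashed line is the median of all tested genes (-0.02). E2f1 and Rbl1 lie below -3, E2f8 lies near -2, and E2f6 and Rbl2 lie between 0.7 and 1.

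The pocket protein genes went different ways. Rbl1, a pocket protein found mainly in cycling cells, had 1.40, 1.94 and 0.772 CPM in P30a to P30c, against 13.8, 13.7, 11.2 and 13.9 CPM in P6a to P6d. The P6 libraries stood 9.61-fold above the P30 libraries on the means, with no overlap, and the log2 fold change was -3.25 ± 0.27 (edgeR adjusted p = 1.5e-05). Rbl2, the pocket protein of resting cells that pairs with E2F4 in the DREAM complex, had 81.4, 79.6 and 65.7 CPM in P30a to P30c, against 43.5, 51.3, 39.3 and 44.8 CPM in P6a to P6d. All P30 libraries were above all P6 libraries, and the log2 fold change was 0.76 ± 0.12 (edgeR adjusted p = 0.00055). Rb1, the retinoblastoma protein gene, had 32.8, 26.3 and 29.1 CPM in P30a to P30c and 27.1, 30.0, 24.3 and 23.8 CPM in P6a to P6d. The ages overlapped for Rb1, whose log2 fold change of 0.16 ± 0.13 did not pass the test (edgeR adjusted p = 0.31) and was -0.02 with library totals.

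Exons of other genes on the opposite strand overlap 21.0% of the exon bases of Rbl2 and 14.9% of those of Rb1, and without strand their reads cannot be told apart there. The neighbour of Rbl2, Aktip, had 103 ± 8.41 CPM at P30 and 56.5 ± 7.53 CPM at P6 (SD, n = 3 and 4), a difference in the same direction as that of Rbl2. The neighbours of Rb1, Rcbtb2 and Lpar6, had 43.7 ± 1.76 and 5.85 ± 0.704 CPM at P30, against 49.2 ± 3.72 and 5.00 ± 0.855 CPM at P6. The part of these overlaps in the counts of Rbl2 and Rb1 was not tested.

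Shares within 5 pairs of members showed, free of library scaling, how far members moved apart. Rbl1 made up 1.69%, 2.38% and 1.16% of the summed Rbl1 and Rbl2 counts in P30a to P30c, against 24.0%, 21.1%, 22.3% and 23.7% in P6a to P6d. Rb1 made up 28.1% ± 2.99 (SD) of Rb1 and Rbl2 counts at P30 and 37.0% ± 1.69 (SD) at P6. E2f4 made up 16.1% ± 1.84 (SD) of E2f4 and E2f6 counts at P30 and 21.99% ± 2.25 (SD) at P6, so E2f6 gained on E2f4. E2f1 made up 68.6% ± 10.8 (SD) of E2f1 and E2f2 counts at P30, which rests on few reads, and 93.6% ± 1.45 (SD) at P6. For each of these 4 pairs the exact permutation test over 35 splits (two-sided, by the absolute difference of means) gave p = 0.0286, the smallest it allows, and 0.0357 after adjustment over the 5 pairs. Doubling the one-sided p instead gives 0.0571 at the least, so under that definition no pair could pass. The doubled form was run first, and the definition by absolute difference was adopted after those p-values had been seen to miss the threshold, so these 4 calls rest on that choice. The share of E2f7 in E2f7 and E2f8 was 40.9% ± 14.3 (SD) at P30 and 31.4% ± 3.64 (SD) at P6, so the libraries of the ages overlapped (exact permutation p = 0.257).

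Levels of different genes were compared as CPM per kilobase of the longest annotated coding transcript (GENCODE M21). E2f6 had the highest level of the 10 at both ages, 67.6 ± 5.52 CPM per kb at P30 and 36.1 ± 3.58 CPM per kb at P6 (SD). It also led when all annotated exon bases of the gene were used as its length, at 28.9 CPM per exon kb at P30 and 15.4 at P6. At P30, E2f4 with 15.6 ± 1.10 and Rbl2 with 15.3 ± 1.75 CPM per kb came next and overlapped, then Rb1 with 6.31 ± 0.694 and E2f3 with 2.29 ± 0.309. E2f1, E2f8, Rbl1, E2f7 and E2f2 followed at 0.434, 0.345, 0.281, 0.184 and 0.0910 CPM per kb, each overlapping its neighbour in the order. At P6, E2f1 had 6.69 ± 1.24 CPM per kb, below E2f4 at 12.3 ± 0.478 and Rbl2 at 9.08 ± 1.007, and overlapped Rb1 at 5.64 ± 0.611. Rbl1 and E2f3 overlapped at P6, with 2.71 ± 0.262 and 2.58 ± 0.412 CPM per kb, and E2f8, E2f7 and E2f2 were at 1.57, 0.489 and 0.271. Parts of this order depend on the length used. Per exon kb at P6, E2f1 at 5.845 was close to Rbl2 at 5.918, and E2f3 at 2.425 stood above Rbl1 at 2.194. At P30, E2f4 had 12.71 and Rbl2 9.997 CPM per exon kb.

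Shares were taken within the 7 E2F genes followed here, without E2f5. Summed over these 7 genes, the activators E2f1, E2f2 and E2f3 made up 3.25% ± 0.762 of the CPM per kb at P30 and 15.97% ± 3.12 at P6 (SD). The atypical genes E2f7 and E2f8 made up 0.606% ± 0.277 at P30 and 3.44% ± 0.252 at P6. The rest, E2f4 and E2f6, made up 96.1% ± 1.03 at P30 and 80.6% ± 3.35 at P6. The summed level of the 7 genes was 86.6 ± 5.28 CPM per kb at P30 and 59.9 ± 2.60 CPM per kb at P6. These shares depend on the length given to each gene, a choice examined after the data were seen. With all annotated exon bases as the length, the activators made up 5.88% ± 1.35 at P30 and 24.2% ± 4.07 at P6 (SD), and E2f6 alone 64.7% ± 2.13 at P30 and 43.7% ± 4.17 at P6. Among pocket proteins, Rbl2 made up 69.9% ± 2.67 at P30 and 52.1% ± 1.28 at P6, and Rbl1 1.27% ± 0.499 at P30 and 15.5% ± 1.13 at P6.

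**Figure D3:**
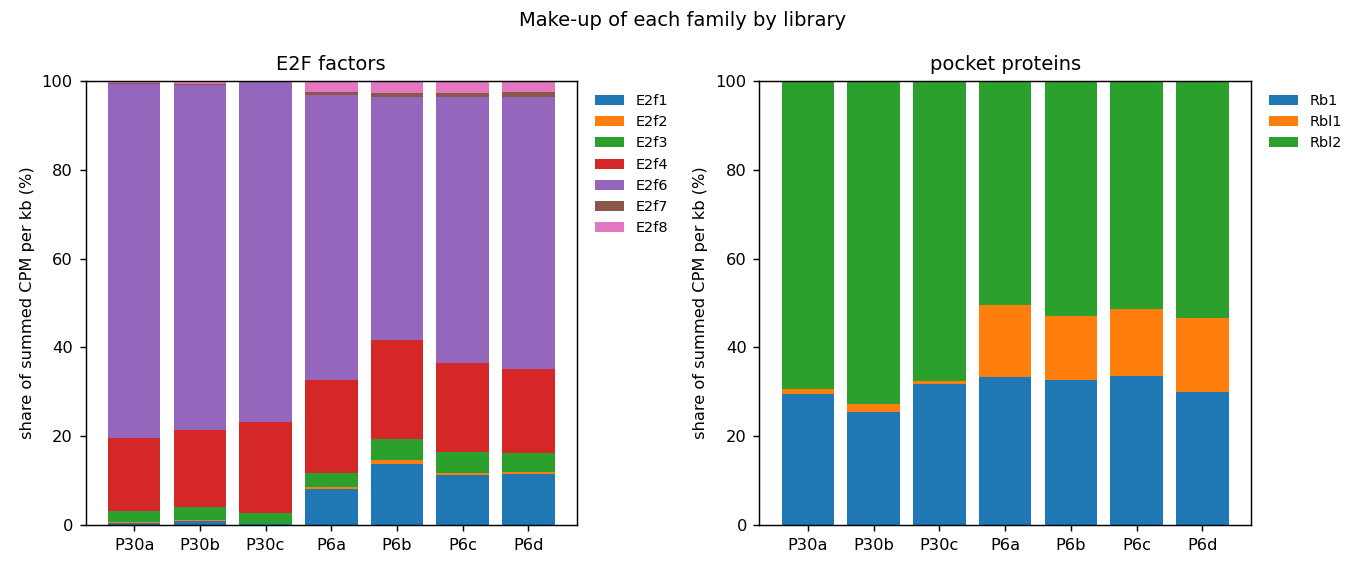
Share of each gene in the summed CPM per kb of the 7 E2F genes (left) and the 3 pocket protein genes (right), with the P30 libraries left of the P6 libraries; bars are single libraries and add to 100%. E2f6 makes up 76.5% to 79.7% of the E2F sum in P30 libraries and 54.6% to 64.2% in P6 libraries, and Rbl1 all but leaves the pocket protein sum at P30.

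The DNA-binding partners and the MuvB core that joins pocket proteins in the DREAM complex gave 4 lower and 2 higher of 9 genes, with a median log2 fold change of -0.19 against -0.02 for all tested genes. The background over all tested genes was 27.8% lower and 26.3% higher. Tfdp2, a DP partner of E2F factors, had 121 ± 5.00 CPM at P30 and 53.0 ± 9.65 CPM at P6 and rose by a log2 fold change of 1.19 ± 0.14 (edgeR adjusted p = 8.4e-05). Tfdp1, the other DP partner, had 22.9 ± 0.694 CPM at P30 and 26.0 ± 1.09 CPM at P6 and did not pass the test (edgeR adjusted p = 0.15). Mybl2, which takes the place of pocket proteins on MuvB in dividing cells, fell with a log2 fold change of -2.54 ± 0.54, to 0.373 ± 0.330 CPM at P30 against 2.24 ± 0.443 CPM at P6. Of the MuvB core genes, Lin9 fell (log2 fold change -1.31 ± 0.19), Lin54 fell (-0.68 ± 0.13) and Rbbp4, a histone-binding protein, fell (-0.87 ± 0.10), whereas Lin37 rose (0.71 ± 0.15).

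Known E2F target genes of the G1/S transition and DNA synthesis were lower in 40 of 44 tested, with none higher and a median log2 fold change of -1.74. Lower genes made up 27.8% of all tested genes. Cdk1, the kinase of mitotic entry, had 1.32 ± 0.835 CPM at P30 and 40.6 ± 11.98 CPM at P6 (log2 fold change -4.91 ± 0.42). Ccna2, the cyclin of S phase and G2, had 2.16 ± 2.07 CPM at P30 and 58.8 ± 14.4 CPM at P6 (log2 fold change -4.74 ± 0.61). P30c held 0 reads of Ccna2, against 42 in P30a and 64 in P30b. Rrm2 and Rrm1, the subunits of ribonucleotide reductase, had 6.19 ± 0.629 and 25.2 ± 3.78 CPM at P30, against 136 ± 21.8 and 101 ± 10.7 CPM at P6. Among the genes that did not pass were Cdc25a, Ung and Msh6, with log2 fold changes of -0.25, 0.32 and -0.25. The E2F letters defined above stood in the RefSeq windows of 17 of 35 genes of this list that had one (48.6%), against 2.61% of 27025 genes. The list was drawn up from genes known as E2F targets, so a high share was built into it.

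All 20 DREAM target genes of G2 and mitosis were lower at P30, with a median log2 fold change of -4.10, whereas 27.8% of all tested genes were lower. Ccnb1, the mitotic cyclin, had 0.543 ± 0.497 CPM at P30 and 31.3 ± 9.66 CPM at P6 (log2 fold change -5.83 ± 0.46). Ube2c, which marks mitotic proteins for breakdown, had 0.907 ± 0.537 CPM at P30 and 51.8 ± 17.2 CPM at P6 (log2 fold change -5.81 ± 0.41), and Top2a, which untangles chromosomes, had 3.66 ± 2.65 CPM at P30 and 56.0 ± 9.78 CPM at P6. Within P30, P30c had the lowest CPM for every gene of this list except Cenpf, with 9 reads of Top2a against 86 in P30b. The CHR letters stood in the windows of 11 of 16 of these genes (68.8%), against 20.2% of all genes, and the E2F letters in none of the 16. This list too was drawn up from known targets, a class described in part by its CHR elements, so the share says nothing of these data.

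**Figure D4:**
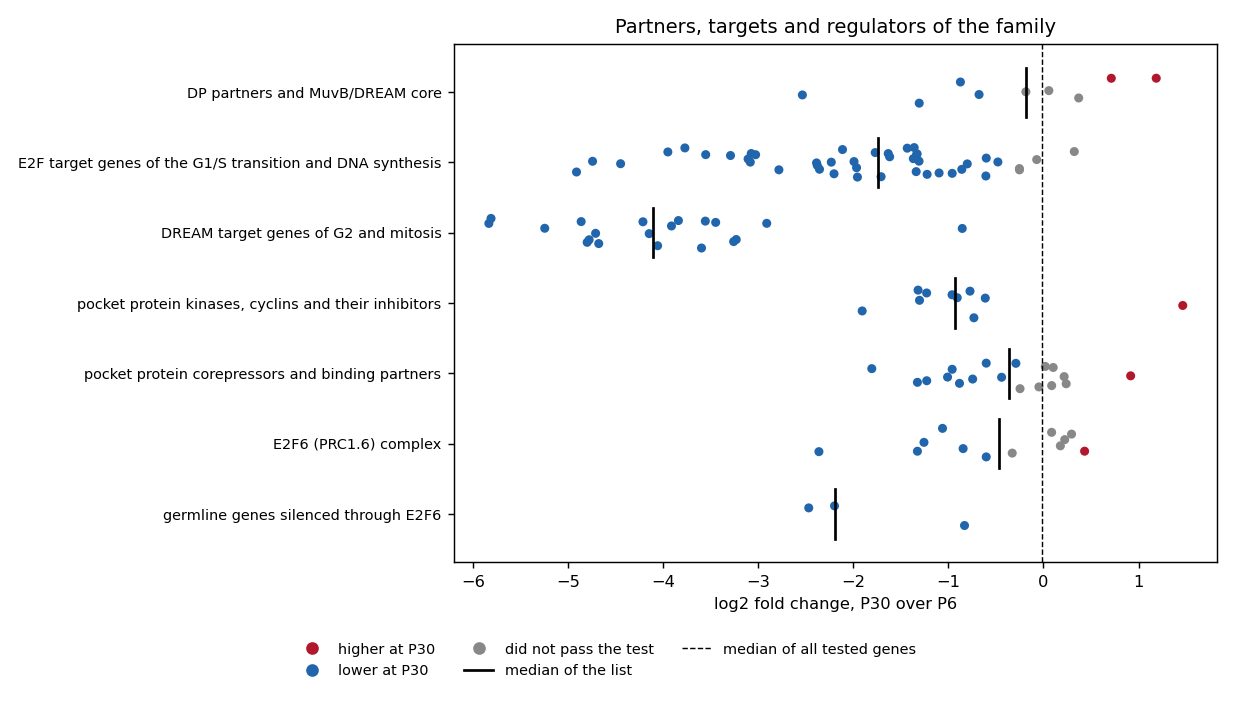
Log2 fold change of P30 over P6 for tested genes of 7 lists of partners, targets and regulators; each point is a gene coloured by its edgeR call, spread vertically at random within its row, the bar is the median of the list and the dashed line that of all tested genes. The DREAM target genes of G2 and mitosis have the lowest median, -4.10, and the E2F target genes of G1/S a median of -1.74.

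Cyclins, kinases and kinase inhibitors that set the phosphorylation of pocket proteins were lower in 9 of 10 tested, of 12 listed, with a median log2 fold change of -0.93. The share lower over all tested genes was 27.8%. Ccnd2 and Ccnd3, D-type cyclins, had 135 ± 2.72 and 78.6 ± 4.16 CPM at P30, against 332 ± 35.6 and 131 ± 10.7 CPM at P6. Cdk6, a partner of D-type cyclins, fell (log2 fold change -1.32 ± 0.25), as did Cdkn2c, an inhibitor of that kinase (-1.91 ± 0.18). Activating and inhibiting genes of this step were thus lower together. Ccnd1, another D-type cyclin, was the exception. It had 14.9, 16.1 and 5.54 CPM in P30a to P30c, against 2.71, 3.60, 5.198 and 6.08 CPM in P6a to P6d, with P30c inside the range of P6 (log2 fold change 1.47 ± 0.37, edgeR adjusted p = 0.0081).

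Corepressors and binding partners of pocket proteins gave 10 lower and 1 higher of 18, with a median log2 fold change of -0.37. Of all tested genes, 27.8% were lower and 26.3% higher. Skp2, a ubiquitin ligase subunit, fell with a log2 fold change of -1.81 ± 0.57 (edgeR adjusted p = 0.022). It had 22, 11 and 4 reads in P30a to P30c and 16, 45, 172 and 54 reads in P6a to P6d. Hdac1 and Hdac2, histone deacetylases, fell with -1.33 ± 0.27 and -0.60 ± 0.09, and Rbbp7, a histone-binding protein, with -0.29 ± 0.10. Smarca2, an ATPase of the SWI/SNF remodeller, rose to 85.5 ± 12.04 CPM at P30, against 45.2 ± 4.401 CPM at P6.

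The Polycomb complex in which E2F6 acts gave 6 lower and 1 higher of 12, with a median log2 fold change of -0.47, while E2f6 itself was higher. Calls over all tested genes were 27.8% lower and 26.3% higher, or 54.1% in either direction. The 6 lower genes include Hdac1 and Hdac2, which were also counted among the corepressors. Among the genes not called were Mga, Max, L3mbtl2 and Pcgf6, at 0.18, 0.09, 0.22 and 0.30 on the log2 scale. Cbx3, a heterochromatin protein, fell by 2.36 ± 0.39 and Yaf2 by 1.06 ± 0.13 on the log2 scale, and Wdr5 rose by a log2 fold change of 0.43 ± 0.09. Cbx3 had only 31, 21 and 12 reads in P30a to P30c. At P6 its level was uneven, with 3.36 CPM in P6b against 7.60 to 8.27 CPM in the other libraries. Of 10 germline genes known or proposed to be silenced through this complex, 3 had enough counts to be tested and were lower: Tdrkh, with 4.90 ± 1.32 CPM at P30 and 8.77 ± 0.418 CPM at P6, Slc25a31, with 0.231 ± 0.283 CPM at P30 and 1.29 ± 0.794 CPM at P6, and Stag3, with 0.175 ± 0.106 CPM at P30 and 0.811 ± 0.421 CPM at P6. The ages overlapped for Slc25a31, and both Slc25a31 and Stag3 lay at P30 near the level of 3 reads, which is 0.167 to 0.210 CPM in the P30 libraries. The count of lower germline genes was 1 without P6a, without P6b or without P6c.

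The genes whose log2 CPM followed a member most closely over the 7 libraries were sought among tested genes with a mean of at least 10 CPM. The libraries fall into 2 separate ages, so the correlations mostly hold the difference between ages and are given as a description. For E2f1 they were Mcm6 (Pearson r = 0.998), a subunit of the replicative helicase, Foxm1 (0.998), a mitotic transcription factor, and Lamb1 (0.998), a laminin chain. For E2f8 they were Cdc20 (0.999), an activator of the anaphase-promoting complex, Foxm1 (0.997) and Ckap2l (0.996), a spindle protein. For Rbl1 they included Atat1 (0.998), a tubulin acetyltransferase, and Gata6 (0.997), a cardiac transcription factor. For Rbl2 they were Sos2 (0.9955), Ints9 (0.994) and Otud4 (0.994).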

How the data were processed

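RNA was sequenced from sorted mouse cardiomyocytes at P30 (3 libraries) and P6 (4 libraries). The authors deposited raw gene counts. The submitters' processing notes list STAR 2.5.3a, CASAVA 1.8, Subread 1.5.2 with featureCounts, and the build mm10. For annotation, strand setting and multi-mapping reads, the choice is not given in the sources used here. The authors also deposited their DESeq2 comparison, which has, per the file headers, baseMean (a signal, the mean of scaled counts), log2 fold changes with SE, a Wald score, and p-values with adjusted p-values. The direction of that table, checked against the counts, is P30 over P6 in 7079 of 7079 called genes. Count columns carry letters that the labels tie to no sample number, so only the age in each column name was used. No 2 libraries were alike within sampling noise (chi-square per gene at least 12.3 within an age, where noise gives about 1).

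The test was that of edgeR 4.0.16, run in R 4.3.3 (low counts removed by filterByExpr, TMM factors, quasi-likelihood fit of age, Benjamini-Hochberg adjustment over 12561 genes, threshold 0.05), and the procedure was tried on simulated data. The SE of a log2 fold change is its size divided by the square root of F. CPM were scaled with TMM factors, and groups are given as mean ± SD. At these depths 3 reads correspond to 0.0553 to 0.271 CPM per library. The SD and SE values include the spread between libraries. Pair shares were tested by exact permutation. Positions and transcript lengths came from GENCODE M21 (GRCm38), in which 22872 of 23337 symbols were found, and promoters from RefSeq (GRCm38.p6). The members and lists were chosen with earlier results of these data known. Named genes were the 10 members and, for each of 7 lists, the 2 most counted and 2 most changed called genes (mean of at least 1 CPM) of the prevailing direction and the most counted of the other, plus the 3 genes most like each of 4 members; genes named to account for a count, and the overlapping neighbours, were chosen after their values were seen. A few genes under these rules are not reported here. Alternatives were library totals, DESeq2 1.42.0, no filter on low counts, removal of a transcript length trend, and leaving out each library.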

Additional observations from a re-analysis of the deposited data

Results flagged for a closer look

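In the P6 group of 4 libraries, 15 sets of values (10 members and 5 pair shares) were searched for a library that stood apart from the other libraries by Dixon's criterion at 95%, which chance meets in about 1 in 20 groups. P6b held 74.4 CPM of E2f6, below the 90.1 to 93.0 CPM of the other P6 libraries. P6c held 11.2 CPM of Rbl1, below the 13.7 to 13.9 CPM of the others. The share of E2f1 in E2f1 and E2f2 counts was 91.4% in P6b, below 94.3% to 94.4% elsewhere at P6. Groups of 3 libraries, as at P30, were not searched.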

How the results depend on the processing

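The calls of E2f1, E2f6, E2f8, Rbl1 and Rbl2 kept their direction and stayed past the threshold under all 11 alternatives. E2f4 was no longer called with library totals (log2 fold change 0.17); leaving out 1 library gave 0.30 to 0.40, with the call lost without P30c. Rb1, not called, reversed to -0.024 with library totals. Leaving out 1 library, E2f2 ranged from -1.83 to -1.27 and lost its call without P30a or P30c, and E2f7 ranged from -1.74 to -0.95 and lost its call without P6d; the cause was not tested. With library totals, or without P30c, 2 members were higher in place of 3. Higher corepressor genes numbered 2 by DESeq2, and 1 to 2 with 1 library left out; lower germline genes numbered 1 to 3 with 1 library left out. With 1 library left out the pair shares (P30 minus P6, percentage points) ranged from -21.6 to -20.6 for Rbl1, -10.3 to -7.32 for Rb1, -30.1 to -19.3 for E2f1 and -6.95 to -4.82 for E2f4; with 6 libraries the exact test cannot pass the threshold, so these say nothing about stability. By doubling the one-sided p, the form run first and made the alternative after its values had been seen, the differences of -21.0, -8.95, -25.1 and -5.91 do not pass (exact permutation, adjusted p = 0.0714). No paired analysis was possible because the count columns carry letters that the labels do not tie to replicate numbers. E2f1, E2f2 and E2f7 had 4, 3 and 4 reads in P30c, against 33, 9 and 20 in P30b, although the total counts of these libraries were close (15555469 in P30c and 16306173 in P30b). P30c was also the lowest P30 library by CPM for all DREAM target genes of G2 and mitosis except Cenpf, and for all endothelial markers except Vwf. Whether these low values are linked was not tested.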
